A study of Homo sapiens with 4 samples.

Results

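DNA transposons are the cut-and-paste class of mobile elements, and 1530 of the 45672 H3K27ac enhancer regions of Kasumi-1 cells had their centre annotated to one. A region was taken when the repeat annotation at its centre gave an element, a class and a family, and the class was DNA. The rule thus read only the position of the centre. That centre depends on the peaks and stitching of each table, so the choice is not independent of signal or group. The sgSETD8 tables held 221 members of 7276 regions and 643 of 18061, and among sgNT regions there were 120 members of 5186 and 546 of 15149. The label was checked against the annotation alone: 178 different DNA elements were named over the 4 tables, and 35 of them occurred in all 4 tables.

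The cells were Kasumi-1, a line from human acute myeloid leukaemia in which t(8;21) joins RUNX1 to RUNX1T1. The sgSETD8 group (2 samples) received CRISPR/Cas9 with a guide against SETD8, whose gene symbol is KMT5A and whose product places the first methyl group on histone H4 lysine 20. The sgNT group (2 samples) received CRISPR/Cas9 with the guide sgNT, read here as non-targeting, its genotype is given as WT, and its medium and serum were those of the knockout. CUT&Tag, in which an antibody brings a transposase to the marked chromatin, mapped acetylation of histone H3 at lysine 27, a mark found at active enhancers, in 100000 cells per library. No promoter, clone, time after guide delivery or knockout efficiency is given in the sources used here, and nothing there says that the samples of a group were separate cultures. Each group has 2 tables, which pair by their naming into a sparse pair, with few and short regions, and a dense pair, with many and long ones. The identifiers of the sparse sgNT table name the cell line and no guide. Tables without counts leave the depth unknown, and 2 tables against 2 cannot give a two-sided exact permutation p under 0.333, so groups were compared by their values alone, sgSETD8 minus sgNT within each pair. Intervals below are exact Clopper-Pearson 95% intervals that treat regions as independent and cover counting error only.

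A DNA transposon encodes a transposase that recognises its terminal inverted repeats, excises the element and inserts it elsewhere. Human copies no longer move. Most are short, internally deleted derivatives, many named MER, that carry the ends of an element without its transposase gene. In the hAT superfamily, the Charlie, Tip100 and Blackjack families are ancient mammalian elements, and in the Tc1/mariner superfamily the Tigger elements are relatives of the fly element pogo. Some copies have been reported in mammals to serve as regulatory sequence, the MER20 elements of endometrial cells among them.

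The annotated centre lay inside a promoter window, from 250 bases before to 50 bases after a gene start in RefSeq, for 2 members alone, both of the dense sgNT table. These are the members whose underlying sequence could be read, and they are printed for that reason after their values had been seen. The rule itself leaves few such members, because the repeat annotation excludes exons and promoters. Bases are 5′ to 3′ on the strand of the gene, from RefSeq on GRCh38.p14, and the capitals mark the 31 bases around the annotated centre, not the extent of the element. The window of H2BC6-AS1, an antisense RNA gene of the histone cluster, is chr6:26172724-26173023 on the minus strand, and the region was centred on ORSL, a hAT-Tip100 element. The window of LOC105374406, an uncharacterised gene, is chr4:37760797-37761096 on the plus strand, and the region was centred on MER91A, also hAT-Tip100.
H2BC6-AS1: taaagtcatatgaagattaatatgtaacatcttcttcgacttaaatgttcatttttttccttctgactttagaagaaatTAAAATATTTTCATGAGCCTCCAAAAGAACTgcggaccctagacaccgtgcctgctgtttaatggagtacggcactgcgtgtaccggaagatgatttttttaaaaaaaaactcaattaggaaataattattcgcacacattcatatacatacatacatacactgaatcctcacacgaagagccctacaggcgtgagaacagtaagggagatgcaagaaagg
LOC105374406: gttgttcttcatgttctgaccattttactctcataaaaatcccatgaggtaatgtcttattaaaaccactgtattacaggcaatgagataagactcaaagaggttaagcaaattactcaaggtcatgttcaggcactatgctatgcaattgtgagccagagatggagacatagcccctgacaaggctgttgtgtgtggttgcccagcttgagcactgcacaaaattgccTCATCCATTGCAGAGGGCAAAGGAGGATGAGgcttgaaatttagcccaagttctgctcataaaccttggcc

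The capitals are bases 80 to 110 of the H2BC6-AS1 window and bases 230 to 260 of the LOC105374406 window, counted from the 5′ end. Both strands were searched for the motif letters of 5 factor families. These were TGTGGT for the RUNX factors and, for the large ETS family, CAGGAAG. For the GATA zinc fingers they were AGATAA, and for the helix-loop-helix factors the E-box CANNTG. The letters of the AP-1 dimers were TGANTCA. The H2BC6-AS1 window held 1 E-box match, starting at base 7, and no match to the other letters. The LOC105374406 window held 1 RUNX match starting at base 194, 1 GATA match at base 86 and 1 E-box match at base 146, all outside the capitals. Of 35116 RefSeq windows of the same length, 13.1% held the RUNX letters, 12.7% the ETS letters, 10.3% the GATA letters, 68.7% the E-box and 7.71% the AP-1 letters. A match describes letters only and is no evidence of binding.

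The H2BC6-AS1 region, chr6:26171885-26173974, was 1 peak of 2090 bp, ranked 5046 in the dense sgNT table. In the dense sgSETD8 table the same stretch was part of an 18606 bp region of 4 peaks centred on no repeat. The LOC105374406 region, chr4:37754294-37767789, joined 3 peaks over 13496 bp and ranked 1876 in dense sgNT. In dense sgSETD8 it lay in a 36733 bp region of 7 peaks centred on MLT1D, an LTR element. In both cases the place was covered in both dense tables, and what differed was the extent of the region and with it the centre.

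DNA transposons were a small share of regions in every table. Members made up 3.04% (2.66 to 3.46%) of sparse sgSETD8 regions, against 2.31% (1.92 to 2.76%) of sparse sgNT regions. In the dense pair they made up 3.56% (3.29 to 3.84%) of sgSETD8 regions, against 3.60% (3.31 to 3.91%) of sgNT regions. The sparse difference was 0.72 percentage points and the dense one -0.04, with a mean of 0.340 ± 0.543 (SD, n = 2 pairs). The spread between pairs was larger than the mean difference. Taken as a share of the regions centred on any repeat, members were fewer with sgSETD8 in both pairs, 5.92% against 7.67% in the sparse and 8.97% against 9.39% in the dense pair. Some other repeat classes differed more in the sparse pair, where LINEs were 19.8% of regions with sgSETD8 against 10.2% with sgNT and simple repeats 7.53% against 1.06%. SINEs differed less, at 7.64% with sgSETD8 against 7.67% with sgNT.

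**Figure D1:**
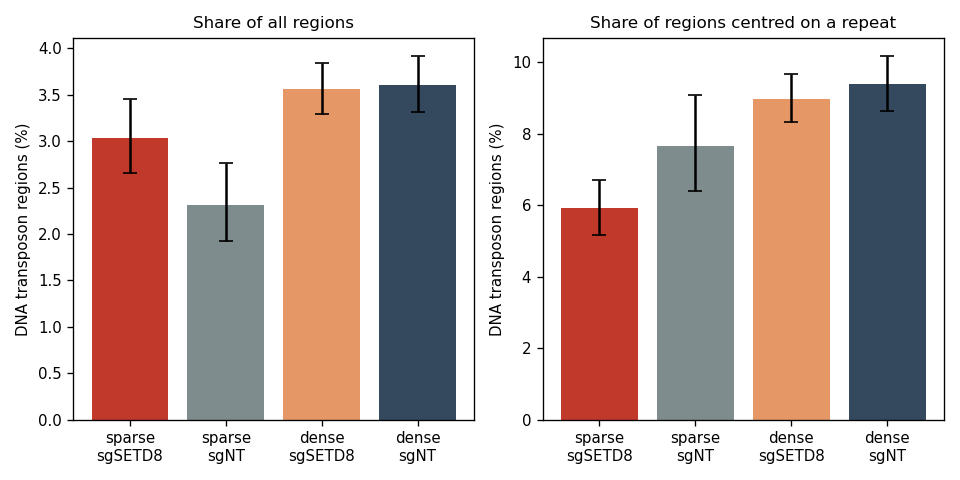
Regions centred on a DNA transposon in each table, as a percentage of all regions (left) and of regions centred on any repeat (right). Bars are table values and error bars exact 95% intervals that cover counting only. With sgSETD8 the share of all regions is 3.04% against 2.31% in the sparse pair and 3.56% against 3.60% in the dense pair, and the share of repeat regions is lower in both.

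Members were more numerous with sgSETD8 in both pairs, as were all regions. There were 1.84 times as many members in sparse sgSETD8 as in sparse sgNT, where all regions differed 1.40-fold, and 1.18 times as many in the dense pair, where all regions differed 1.19-fold. Regions made of 1 peak and regions stitched from several peaks differed in opposite directions. Of 1-peak regions, 2.99% were members in sparse sgSETD8 against 2.08% in sparse sgNT, and 3.49% in dense sgSETD8 against 3.15% in dense sgNT. Of stitched regions, 3.52% were members in sparse sgSETD8 against 3.87% in sparse sgNT, and 3.66% in dense sgSETD8 against 4.23% in dense sgNT. By length, members covered 3.53% of the enhancer bases in sparse sgSETD8 against 4.05% in sparse sgNT, and 3.68% in dense sgSETD8 against 4.50% in dense sgNT. With 2 pairs these differences are given as values, without a test.

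hAT elements outnumbered Tc1/mariner elements in all 4 tables. In the sparse pair there were 124 hAT and 96 Tc1/mariner members with sgSETD8 and 77 and 43 with sgNT. In the dense pair there were 388 hAT and 245 Tc1/mariner members with sgSETD8 and 333 and 209 with sgNT. hAT-Charlie, the family of MER5A, MER20 and the Charlie elements, gave 80 members (36.2%, 29.9 to 42.9%) in sparse sgSETD8 against 55 (45.8%, 36.7 to 55.2%) in sparse sgNT. Among dense members it gave 298 (46.3%) with sgSETD8 against 261 (47.8%) with sgNT. This share of members was lower with sgSETD8 in both pairs, while the intervals of each pair overlapped. Per 1000 regions, hAT-Charlie members numbered 11.0 in sparse sgSETD8 against 10.6 in sparse sgNT, and 16.5 in dense sgSETD8 against 17.2 in dense sgNT, so the sparse direction depends on whether members or all regions are the base.

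TcMar-Tigger, the pogo-related family, gave 95 members (43.0%) in sparse sgSETD8 against 43 (35.8%) in sparse sgNT, and 233 (36.2%) in dense sgSETD8 against 197 (36.1%) in dense sgNT. In sparse sgSETD8 alone it was the most frequent family. hAT-Tip100 gave 37 members (16.7%) in sparse sgSETD8 against 12 (10.0%) in sparse sgNT, and 62 (9.64%) in dense sgSETD8 against 44 (8.06%) in dense sgNT. hAT-Blackjack ran the other way, with 5 members in sparse sgSETD8 against 8 in sparse sgNT, and 19 in dense sgSETD8 against 20 in dense sgNT. TcMar-Tc2 had 9 members in dense sgSETD8 against 7 in dense sgNT, and elements given only as hAT had 2 against 1 in the sparse and 4 against 3 in the dense pair.

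**Figure D2:**
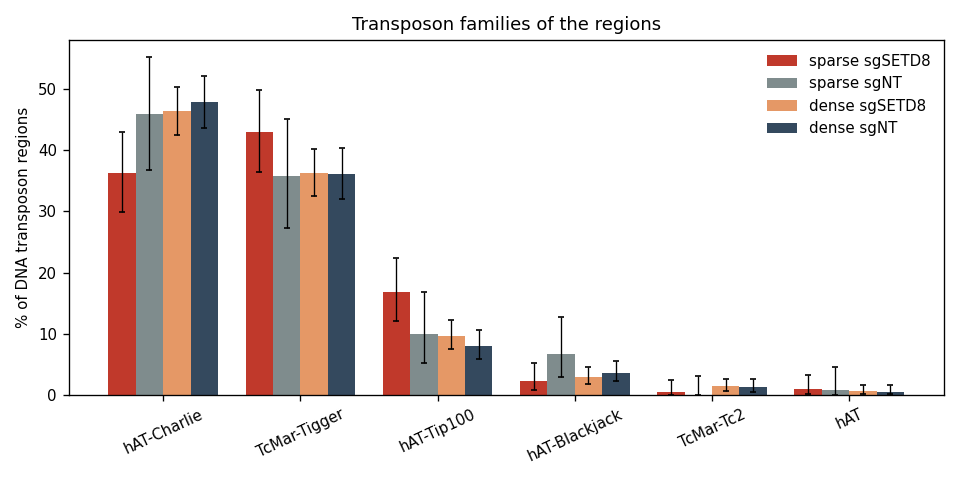
Families with at least 10 members over the 4 tables, as a percentage of the members of each table, with exact 95% intervals as error bars. hAT-Charlie makes up 36.2% of members in sparse sgSETD8 and 45.8% to 47.8% in the other tables, and TcMar-Tigger 43.0% in sparse sgSETD8 and 35.8% to 36.2% in the others.

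The families also differed in where they lay. Intergenic hAT-Tip100 members made up 62.2% in sparse sgSETD8, 50.0% in sparse sgNT, 50.0% in dense sgSETD8 and 40.9% in dense sgNT, the highest of the 3 largest families in every table. TcMar-Tigger members were intergenic in 30.5% and 9.87% of cases in the sgSETD8 tables, sparse and dense, and in 18.6% and 13.2% in the sgNT tables. hAT-Charlie lay between in the dense pair, at 24.8% with sgSETD8 and 24.1% with sgNT.

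Across the 43 elements with at least 10 members, 14 were more frequent per 1000 regions with sgSETD8 in both pairs, 8 were less frequent in both, and 19 moved in opposite directions. Tigger3b, with most members in all, had 15 in sparse sgSETD8 against 7 in sparse sgNT and 31 in dense sgSETD8 against 24 in dense sgNT. MER5A, a short non-autonomous Charlie derivative, had 15 against 6 and 25 against 23. Per 1000 regions MER5A was higher with sgSETD8 in the sparse pair (2.06 against 1.16) and lower in the dense pair (1.38 against 1.52). MER20 had 5 in sparse sgSETD8 against 8 in sparse sgNT, and 28 in dense sgSETD8 against 23 in dense sgNT. Per 1000 regions MER20 was lower with sgSETD8 in the sparse pair (0.687 against 1.54) and nearly equal in the dense pair (1.55 with sgSETD8).

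Tigger1, a pogo-related element, had 4 members in sparse sgSETD8 against 5 in sparse sgNT and 31 in dense sgSETD8 against 24 in dense sgNT. MER1B, a Charlie derivative, had 12 in sparse sgSETD8 against 3 in sparse sgNT, and 9 in dense sgSETD8 against 25 in dense sgNT, so its direction turned between pairs. MER5B had 4 against 4 and 16 against 20, and MER3 had 2 against 2 and 18 against 14. Tigger3a had the widest gap, with 26 members in sparse sgSETD8 against 2 in sparse sgNT, and 16 in dense sgSETD8 against 14 in dense sgNT. Per 1000 regions the dense Tigger3a value was lower with sgSETD8, at 0.886 against 0.924.

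**Figure D3:**
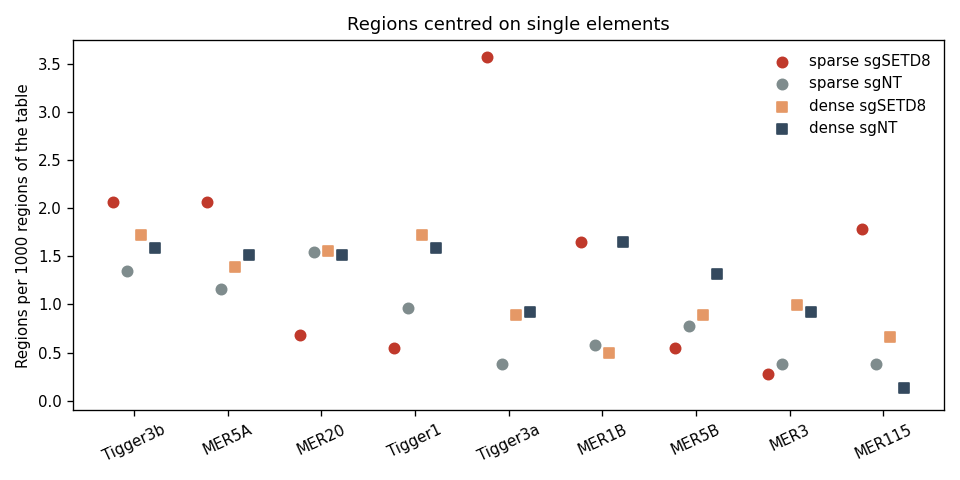
Members per 1000 regions of a table for the 8 elements with most members, and for MER115, each point 1 table. Tigger3a stands at 3.57 per 1000 in sparse sgSETD8 and below 1 in the other 3 tables, and the sgSETD8 point of MER115 is above the sgNT point in both pairs.

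The Tigger3 elements (Tigger3 and Tigger3a to Tigger3d) were grouped after their values had been seen, so they are described without a test. They gave 57 members (25.8%, 20.2 to 32.1%) in sparse sgSETD8 against 12 (10.0%, 5.27 to 16.8%) in sparse sgNT. Dense Tigger3 members numbered 60 (9.33%) with sgSETD8 against 46 (8.42%) with sgNT. Per 1000 regions this was 7.83 against 2.31 for sparse and 3.32 against 3.04 for dense regions. The sparse sgSETD8 set was spread over 19 chromosomes with at most 6 on one, and 56 of the 57 were made of 1 peak. Of these 57 places, 24 (42.1%) overlapped a region of the dense pair, as did 61 of the other 164 members of that table (37.2%). Other Tigger elements ran the other way, with 38 (17.2%) in sparse sgSETD8 against 31 (25.8%) in sparse sgNT. Without the Tigger3 elements the share of regions centred on DNA transposons was 2.25% in sparse sgSETD8 against 2.08% in sparse sgNT, and 3.23% in dense sgSETD8 against 3.30% in dense sgNT.

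MER115, a hAT-Tip100 element also picked out after its values had been seen, had 13 members in sparse sgSETD8 against 2 in sparse sgNT and 12 in dense sgSETD8 against 2 in dense sgNT. It was higher with sgSETD8 in both pairs. Of the sgSETD8 places, 3 of the 13 sparse and 2 of the 12 dense ones overlapped a region of the other pair. For sgNT this was 2 of 2 sparse and 1 of 2 dense places. Of all sparse sgSETD8 regions, 26.3% overlapped a dense sgSETD8 region and 24.7% a dense sgNT one. Of all dense sgSETD8 regions, 9.83% overlapped a sparse sgSETD8 region and 19.7% a sparse sgNT one. So few shared places are not particular to MER115. The shortest width in sparse sgSETD8 was 274 bp. The 13 sparse sgSETD8 places were 1 peak of 274 to 513 bp each, and the best ranked 1406 and was assigned to MILR1. Another was intronic and assigned to BACH2, a transcriptional repressor of lymphoid cells, at rank 2545. The 2 sparse sgNT places were intronic and assigned to MR1, an antigen-presenting molecule, and CDK6, a cell cycle kinase. In dense sgSETD8 the best ranked, 3421, was 4 peaks over 23735 bp assigned to CREB3L2, and the next, 6399, was assigned to BAALC, whose expression is a marker in leukaemia. None of the 13 sparse sgSETD8 places had an overlapping region in sparse sgNT, and 5 of the 12 dense sgSETD8 places had one in dense sgNT. Of all regions, 85.1% of sparse sgSETD8 and 34.0% of dense sgSETD8 had none.

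Members were shorter with sgSETD8 in both pairs. The median width was 322 bp in sparse sgSETD8 against 545 bp in sparse sgNT, and 1276 bp in dense sgSETD8 against 2506.5 bp in dense sgNT. The log2 ratio was -0.76 and -0.97, with a mean of -0.87 ± 0.15 (SD, n = 2 pairs). Fewer members were stitched with sgSETD8, since 199 of 221 had 1 peak in sparse sgSETD8 against 94 of 120 in sparse sgNT, and 376 (58.5%) in dense sgSETD8 against 276 (50.5%) in dense sgNT. Among 1-peak members the median was 305 bp in sparse sgSETD8 against 439 bp in sparse sgNT, but 600.5 bp in dense sgSETD8 against 561.5 bp in dense sgNT, so the dense direction did not hold among 1-peak members. In sparse sgSETD8, 82 members (37.1%) had the shortest width in that table, 274 bp, as did 29.7% of all its regions. In sparse sgNT 9 members (7.50%) had that table's shortest width, 293 bp.

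Set against the other regions of their own table, members did not keep 1 direction in width. Other regions had a median of 341 bp in sparse sgSETD8 and 510.5 bp in sparse sgNT, and 1504.5 bp in dense sgSETD8 and 1500.0 bp in dense sgNT. The difference in log2 median width averaged 0.13 ± 0.43 (SD, n = 4 tables; exact two-sided sign-flip permutation p = 0.75). The largest gap was in dense sgNT, where members were longer than other regions and only 50.5% had 1 peak, against 58.2% of the others.

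The intergenic share of members was below that of regions centred on other repeats in every table. Intergenic members made up 36.2% in sparse sgSETD8, against 54.9% of its other repeat regions, and 30.8% in sparse sgNT, against 42.2%. In the dense pair the shares were 22.4% of members in sgSETD8, against 28.5%, and 22.7% in sgNT, against 26.1%. Members were lower in 4 of 4 tables, with a mean difference of -9.89 ± 6.76 percentage points (SD, n = 4 tables; exact two-sided sign-flip permutation p = 0.125, the smallest that 4 tables can give). Distance to the annotated start site showed no such order, with member medians of 35.1 kb in sparse sgSETD8 and 28.8 kb in sparse sgNT, and 25.8 kb in dense sgSETD8 and 20.7 kb in dense sgNT. For other repeats the medians were 42.5 kb, 27.1 kb, 23.3 kb and 19.6 kb in the same order of tables. Of intronic members, 48 of 141 lay in intron 1 in sparse sgSETD8, 20 of 83 in sparse sgNT, 181 of 499 in dense sgSETD8 and 168 of 422 in dense sgNT. As shares these were 34.0%, 24.1%, 36.3% and 39.8%, beside 27.5%, 32.0%, 40.7% and 43.5% of intronic regions centred on other repeats, so members were above in 1 table and below in 3.

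Few members reached a promoter, and few regions of any kind did. A RefSeq promoter window lay wholly in 1 member (0.452%) of sparse sgSETD8 against 4 (3.33%) of sparse sgNT, and in 59 (9.18%) of dense sgSETD8 against 58 (10.6%) of dense sgNT. Among all regions the shares were 0.426% in sparse sgSETD8 and 1.45% in sparse sgNT, and 9.97% in dense sgSETD8 and 10.3% in dense sgNT. Of the dense members with a promoter, 4 of sgSETD8 and 4 of sgNT were made of 1 peak, so most of the promoters lay in stitched regions.

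By the authors' signal, rank 1 being the highest of a table, members sat near the middle. Their median rank, as a percentage of the table's length, was 56.4 in sparse sgSETD8 against 46.2 in sparse sgNT, and 50.7 in dense sgSETD8 against 45.1 in dense sgNT, in lists of different lengths. Against other regions of the same table the difference averaged -0.391 ± 5.34 points (SD, n = 4 tables; exact two-sided sign-flip permutation p = 1). The best-ranked 10% of each table held 22 members in sparse sgSETD8 against 16 in sparse sgNT, and 62 in dense sgSETD8 against 60 in dense sgNT. As shares of the members these were lower with sgSETD8 in both pairs, 9.95% against 13.3% in the sparse and 9.64% against 11.0% in the dense pair.

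The loci below are the best-ranked among members whose assigned gene has no LOC, LINC or MIR prefix. This passes over members of high rank, among them MER58B at rank 7 in dense sgNT, the longest member with 79 peaks over 286924 bp. The best-ranked of these in sparse sgSETD8 was centred on MER5A in intron 1 of 20 of KIT, the stem cell factor receptor, at rank 14, 4 peaks over 24615 bp. Regions of the other 3 tables overlapped it and the sparse sgNT one was centred on no repeat. Next among them came MER58B in intron 1 of 16 of TBL1XR1, a corepressor subunit (rank 39), Tigger3a in intron 2 of 17 of AGO2, the slicer of RNA interference (rank 85), Charlie1a near INSIG1 (rank 89), Arthur1B near INHBA (rank 153) and Charlie4z near PSAP (rank 255). All 6 had an overlapping sparse sgNT region, and 2 of them, INHBA and PSAP, had the same element at its centre.

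In sparse sgNT the best-ranked of these was MER53 near ASB9P1 at rank 11, followed by MER5A in intron 1 of 4 of CMTM7 (rank 38), MER5A near LHFPL3-AS2 (rank 64), MER58C in intron 1 of 30 of SPTBN1, a spectrin (rank 65), MER63A in intron 1 of 6 of GNAQ, a G protein subunit (rank 83), and MER5A near RAB40AL (rank 109). The CMTM7 region had no counterpart in sparse sgSETD8, the nearest region being 169394 bp away. In dense sgSETD8 the same gene held a member of rank 54, centred on MER3 and overlapping a dense sgNT region.

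The dense tables joined many peaks around an element. In dense sgSETD8 the best-ranked was Tigger3b in intron 2 of 10 of CCNY, cyclin Y, at rank 8, 47 peaks over 242064 bp. Tigger17a in intron 3 of 19 of TCF12, an E protein (rank 75, 34 peaks), MER44A in MAP4K4 (rank 79, 37 peaks), Tigger19b in intron 2 of 4 of BCL11A, a transcriptional repressor (rank 93, 27 peaks), and MamRep4096 in PTK2B (rank 98, 19 peaks) also stood high. All had an overlapping dense sgNT region centred on no repeat. In dense sgNT the best-ranked with a name of this kind were MER103C in RAB6B (rank 56), Tigger15a in CAPZB (rank 81), MamRep137 in CCDC26 (rank 87), MER2 in PACSIN2 (rank 91), MER5A near VAV3 (rank 139) and MER94B in KCNQ5-IT1 (rank 168). Each overlapped a dense sgSETD8 region, and none of those was centred on a DNA transposon. For such wide regions the element at the centre describes a position and not the place of the signal.

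Most sparse members and a minority of dense members had no overlapping region in the other group of their pair. In sparse sgSETD8 188 of 221 (85.1%, 79.7 to 89.5%) had none, beside 85.1% of all regions of that table. In sparse sgNT 88 of 120 (73.3%, 64.5 to 81.0%) had none, beside 79.1% of all regions. In dense sgSETD8 213 of 643 (33.1%, 29.5 to 36.9%) had none, beside 34.0% of all regions, and in dense sgNT 109 of 546 (20.0%, 16.7 to 23.6%), beside 22.7%. Each of these 4 intervals included the share of all regions of its table. The sgSETD8 share exceeded the sgNT share by 11.7 points among sparse members and by 13.2 points among dense ones, and the sgSETD8 table also held more regions in both pairs. The share of all regions was also higher with sgSETD8 in both pairs. Among members of at least 500 bp the sparse difference turned to -10.6 points and the dense one was 11.6. That difference was not taken over all regions of this length.

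The number of peaks divided the members more than the group did, and it divided all regions in the same way. Of 1-peak members, 88.4% of sparse sgSETD8, 77.7% of sparse sgNT, 49.2% of dense sgSETD8 and 34.8% of dense sgNT had no counterpart. Among all 1-peak regions the shares were 88.2%, 82.9%, 48.5% and 34.5% in the same order. Of stitched members they were 54.5%, 57.7%, 10.5% and 4.81%, beside 52.0%, 54.2%, 12.6% and 6.49% of all stitched regions. Members without a counterpart ranked lower in both pairs. In the sparse pair their median was 63.1% of the list in sgSETD8 and 57.5% in sgNT, against 14.0% and 22.3% for those with one. In the dense pair it was 81.7% in sgSETD8 and 83.1% in sgNT, against 35.7% and 37.2%.

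**Figure D4:**
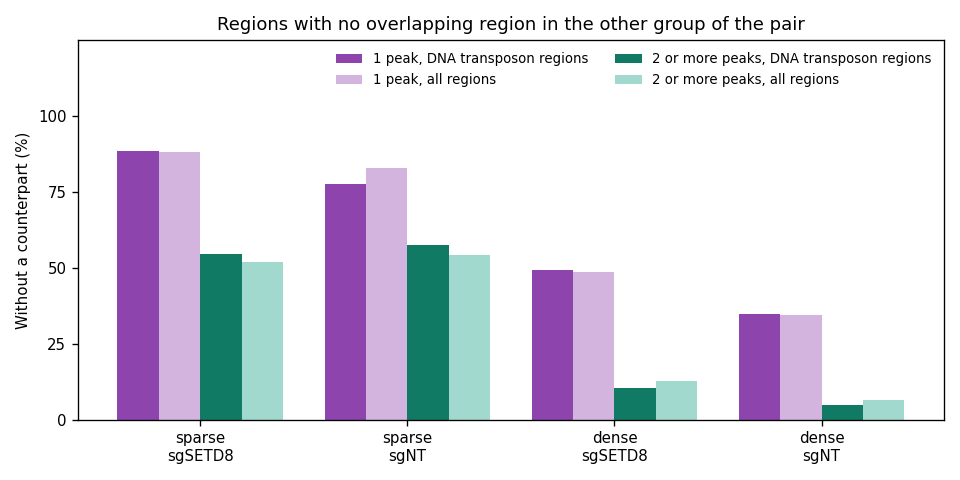
Percentage of regions with no overlapping region in the other group of the pair, for members and for all regions of each table, split by 1 peak and 2 or more peaks. Members follow all regions closely, as with 49.2% of 1-peak members and 48.5% of all 1-peak regions in dense sgSETD8.

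With the same names passed over, the best-ranked members without a counterpart were mostly stitched. In sparse sgSETD8 they were Tigger2 in FNIP1, assigned to RAPGEF6 (rank 369), MER53 in CTNND2 (rank 427), MER5A in intron 1 of 8 of SAMSN1, a lymphocyte adaptor (rank 432), MER5A1 in TMEM132D (rank 450) and Tigger17a near FOXCUT (rank 564). The dense pair had regions over the SAMSN1 place in both groups, over the RAPGEF6 place in sgNT only, and none over the other 3. In sparse sgNT they were CMTM7, Tigger11a in TBC1D2B (rank 127), MER20 in GGA3 (rank 283), Tigger1 near MYCNOS (rank 353) and MER58C near NLRP6 (rank 359), and both dense tables had a region over each of these 5. The TBC1D2B region missed its nearest sparse sgSETD8 region by 101 bp.

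In dense sgSETD8 the best-ranked without a counterpart stood far down, with MER5A1 in intron 4 of 32 of MYLK, assigned to MYLK-AS2, at rank 3902, MER63C in FGF7 (rank 5252), MER81 near RTL3 (rank 5264), MER6A in OXR1 (rank 5331) and Charlie1 near CTHRC1 (rank 5439). In dense sgNT they were MER33 in CCM2, assigned to NACAD (rank 1673), Tigger5b in RPL38, a ribosomal protein gene (rank 4934), Charlie1b in MED12L, assigned to IGSF10 (rank 5124), Tigger1 near SSX2IP (rank 5203) and MamRep38 near GRIP2 (rank 5865). In the sparse pair, the FGF7 place was covered in sgNT only and the CCM2 place in sgSETD8 only, and neither sparse table had a region over the other 8.

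Where a counterpart existed, its centre was often on something else. The same element was at the centre for 11 of 33 members of sparse sgSETD8 and 11 of 32 of sparse sgNT, and for 78 of 430 of dense sgSETD8 and 78 of 437 of dense sgNT. When both regions were 1 peak this was 55 of 118 and 55 of 120 in the dense pair. When either was stitched it was 7.37% for sgSETD8 and 7.26% for sgNT. The centre moved by a median of 304 bp for sparse sgSETD8 and 354 bp for sparse sgNT members, and by 1484 bp for dense sgSETD8 and 1218 bp for dense sgNT members. These values were taken for members only, so they do not set members apart from other regions.

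Signal density could be compared only where a dense sgSETD8 and a dense sgNT region each covered at least 90% of the other. There were 1769 such pairs of regions, with a median log2 ratio of -0.26 that was subtracted. The scale of the deposited density is unknown, so values are relative to that median and have no replicate. Both regions were centred on a DNA transposon in 27 cases, and all but 1 of them on the same element. Their median was 0.03 above that of all matched regions (SD 0.28 over the 27, and 0.24 over the others), and 16 of 27 lay above it. A density at least 1.5-fold from the median was seen in 2 of the 27, beside 2.43% of all 1769, 43 regions.

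The highest was Charlie2b in intron 2 of CFAP47, a cilia gene, with a density of 0.330 in dense sgSETD8 against 0.244 in dense sgNT (log2 0.70 above the median). Next was MER58A in TPST1, a tyrosylprotein sulfotransferase, with 0.978 in dense sgSETD8 against 0.768 in dense sgNT (0.61 above). The lowest were MER6 at MIR4434, with 0.243 in dense sgSETD8 against 0.430 in dense sgNT (log2 -0.56), and MER58B in RBFOX2, a splicing factor, with 0.329 against 0.494 (-0.32). These 4 genes were picked as the extremes after their values had been seen. The other members lay between -0.21 at SMURF2 and 0.50 at SRSF4.

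Overlapping members of different tables formed 1392 loci, and 1263 of these had a member in 1 table only. Another 122 had members in 2 tables, 88 of them in the dense pair, 6 in 3 tables and 1 in all 4. Only members were counted, so a locus with a member in 1 table may still be covered by regions of other tables. Of dense members, 430 of 643 with sgSETD8 and 437 of 546 with sgNT overlapped a region of the other group. Of sparse members, 33 of 221 with sgSETD8 and 32 of 120 with sgNT did. Such loci were not formed for all regions or for other repeats, so these counts do not set members apart. The locus with members in all 4 tables was Tigger3a, in intron 9 of 19 of DTNB, a dystrobrevin gene, and assigned to DNMT3A, a DNA methyltransferase often mutated in myeloid disease. It was 1 peak in each table, chr2:25483767-25484216 in sparse sgSETD8, chr2:25483543-25484200 in sparse sgNT, chr2:25483552-25484396 in dense sgSETD8 and chr2:25483589-25484250 in dense sgNT. The 4 centres lay within 120 bp. It ranked 1742 of 7276 in sparse sgSETD8 and 1485 of 5186 in sparse sgNT, and 11199 of 18061 in dense sgSETD8 and 8856 of 15149 in dense sgNT.

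Of the 6 loci with members in 3 tables, 4 had centres within 448 bp. MER58A in intron 2 of 5 of TPST1 was a member in dense sgSETD8 (rank 9126), sparse sgNT (3486) and dense sgNT (8920). Charlie2a or Charlie2b in intron 1 of 10 of STX18, assigned to STX18-IT1, and Tigger10 in intron 5 of 5 of AP1S3, an adaptor subunit, had the same 3 tables. Tigger3c or Tigger3b in intron 4 of 5 of RNF141, assigned to MTRNR2L8, was a member in both sgSETD8 tables and in sparse sgNT. At INHBA, the activin A subunit gene, Arthur1B was at the centre in sparse sgSETD8 (rank 153) and sparse sgNT (rank 128), and a wide dense sgNT region of 31877 bp was centred on MER121. At HGD, homogentisate dioxygenase, MER63A was at the centre in sparse sgSETD8 (rank 908) and sparse sgNT (rank 1007), and a dense sgSETD8 region of 13525 bp was centred on Charlie26a.

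**Figure D5:**
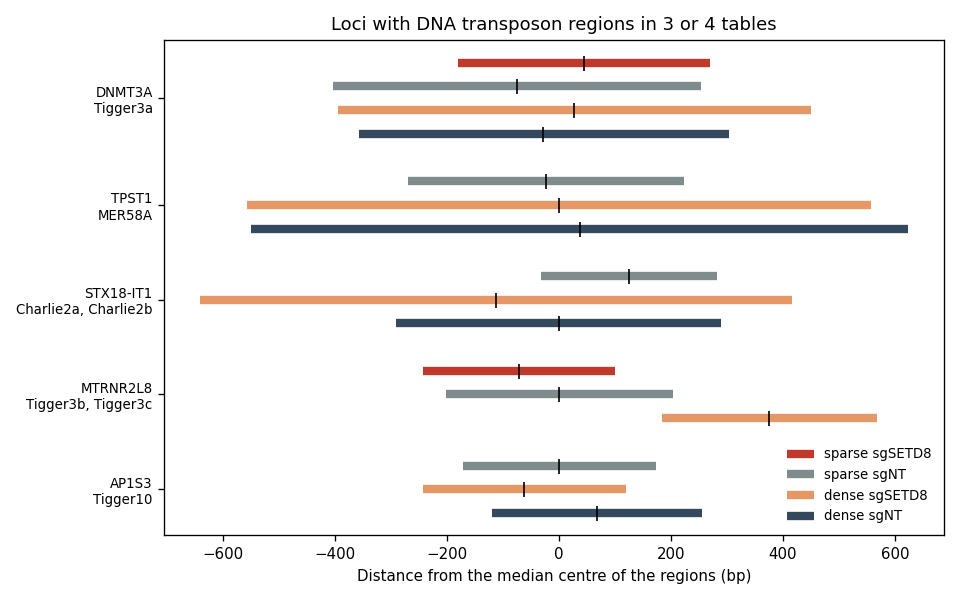
Members at the 5 loci where members of 3 or 4 tables had centres within 448 bp, drawn as bars by distance in bp from the median centre of the locus, with a tick at each centre. The 4 regions over Tigger3a at DNMT3A all overlap one another, and the third region at MTRNR2L8 lies to 1 side of the others.

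Members were also counted at genes of t(8;21) biology and of blood cells. KMT5A and RUNX1T1 had none, and RUNX1 had 1, MER91A in a 391 bp dense sgNT region at rank 12204 whose centre lay at -178158 bp from the start site. Of 18 core factors of t(8;21) cells, 5 had a member: KIT, TCF12, FLI1, RUNX1 and ERG. Of the regions assigned to these 18 genes, members were 3 of 21 in sparse sgSETD8 and none of 39 in sparse sgNT (3 counts as the upper limit of 0 allow a share of up to 7.69%), and 4 of 68 in dense sgSETD8 against 2 of 71 in dense sgNT. In sgSETD8 these were 14.3% of sparse and 5.88% of dense regions, beside 3.04% and 3.56% of all regions of those tables, and in dense sgNT 2.82% beside 3.60%. At FLI1, an ETS factor, MER20 was at the centre in dense sgSETD8 (rank 10407) and dense sgNT (rank 7800). At ERG, its close relative, MER58B had a 375 bp region of 1 peak in dense sgSETD8 (rank 17852) and no dense sgNT counterpart. Of all 1-peak dense sgSETD8 regions, 48.5% had none.

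Of 20 stem and progenitor genes, 7 had a member. Members were 1 of 17 of their regions (5.88%) in sparse sgSETD8 against 2 of 28 (7.14%) in sparse sgNT. In the dense pair they were 6 of 56 (10.7%) with sgSETD8 against 3 of 62 (4.84%) with sgNT. Of all regions, members made up 3.04% of sparse sgSETD8, 2.31% of sparse sgNT, 3.56% of dense sgSETD8 and 3.60% of dense sgNT. The list shares rest on 1 to 6 members each. Besides DNMT3A and BCL11A the genes with a member were GFI1, a zinc finger repressor, GATA2, CD34, ASXL1 and CDK6. At GFI1, Tigger1 was at the centre in dense sgSETD8 (rank 8161) and dense sgNT (rank 8164), in intron 19 of 19 of EVI5. GATA2, a regulator of blood stem cells, had MER3 in its intron 4 of 5 in dense sgSETD8 (rank 1453), over a dense sgNT region centred on no repeat. CD34 had MER94 in dense sgNT (rank 3201) and ASXL1, a Polycomb-associated factor, MER30 in dense sgSETD8 (rank 4281). Of 20 myeloid genes 1 had a member, CLEC5A, with Charlie4z in dense sgSETD8 (rank 5460). That was 1 of the 13 dense sgSETD8 regions of the list. There was no member among its 9 dense sgNT, 8 sparse sgSETD8 and 6 sparse sgNT regions. Of 28 mitochondrial genes 3 had a member: TIMMDC1, a complex I assembly factor (Tigger4a, dense sgSETD8, rank 1737), MIEF1, a fission factor (MER20, sparse sgNT, rank 2967), and NDUFS1, a complex I subunit (MER20, dense sgNT, rank 10593). These were 1 of 23 dense sgSETD8, 1 of 8 sparse sgNT and 1 of 19 dense sgNT regions of the list. Sparse sgSETD8 had no member among 11. The MIEF1 and NDUFS1 regions, of 1 peak each, had no counterpart in sgSETD8. Of all 1-peak regions, 82.9% in sparse sgNT and 34.5% in dense sgNT had none.

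Members were spread over many genes. In the sparse pair 216 genes had a member with sgSETD8 and 120 with sgNT. In the dense pair 594 genes had a member with sgSETD8 and 520 with sgNT. FOXN3, a forkhead factor, had 4 members among its 55 dense sgSETD8 regions, on MER20, MER112 and MER2B. BMP2K, HIVEP2, MLLT10, RASAL2 and TMEM14EP had 3 each in dense sgSETD8, and KANSL1 had 3 in dense sgNT.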

How the data were processed

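CUT&Tag mapped H3K27ac in 4 samples (sgSETD8 and sgNT, 2 each). The sample titles and antibody labels name H3K27ac, while the series' design text names H3K27me1. Reads were trimmed with cutadapt and placed on hg38 with Bowtie2 according to the submitters' processing notes. The tools for peaks, stitching and annotation are not named there. The authors deposited 4 tables of enhancer regions with 1 signal column, a density of at most 4 decimals multiplied by the region's length, whose scaling is not stated. The distance to the TSS and the repeat at the region's centre are as deposited, per the file headers. Tables were assigned to groups by the guide in their identifiers, the sparse sgNT table by the absence of one, and which sample of a group a table holds was not resolved. Unused value columns numbered 0.

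Regions whose annotation has 3 fields with class DNA were taken on chromosomes 1 to 22, X and Y. Overlap meant at least 1 bp (bedtools 2.31.1). The signal was used to rank regions within a table and, at regions covering each other by at least 90%, to compare density. The scripts were tested on simulated regions with known answers. Shares have Clopper-Pearson 95% intervals, and exact sign-flip tests over 4 tables compared members with other regions. Tables hold no counts, so depth and its precision are unknown. The software was matplotlib 3.10.9, scipy 1.17.1, pandas 2.3.3 and numpy 2.4.6 on Python 3.11.15.

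Members, gene lists and tests were chosen with earlier results of these data known. Named loci were KMT5A, RUNX1 and RUNX1T1, the 6 best-ranked members of each table, the 5 best-ranked without a counterpart, loci with members in at least 3 tables, and up to 6 genes of each list. The 8 elements with most members and families with at least 10 were named. Names that begin with MIR, LINC or LOC were left out, apart from MIR4434 and the promoter windows. The Tigger3 group, MER115, genes with at least 3 members, and the extremes of density were chosen after seeing their values. Some results are not reported here. RefSeq (GRCh38.p14) held the transcript of 1138 of 1145 intronic members (99.4%). Alternatives changed the overlap, ranks, widths, stitching, denominators, class names, counting unit, Tigger3 elements and pairs used.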

Additional observations from a re-analysis of the deposited data

Results flagged for a closer look

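Several differences between sgSETD8 and sgNT took opposite signs in the sparse and the dense pair. None of these differences between pairs was tested, since each rests on 2 pairs of tables. The share of regions centred on DNA transposons was higher with sgSETD8 in the sparse pair and lower in the dense pair, and the sparse difference exceeded the dense one by 0.768 percentage points. The intergenic share of members was 36.2% in sparse sgSETD8 against 30.8% in sparse sgNT and 22.4% in dense sgSETD8 against 22.7% in dense sgNT, and here the sparse difference exceeded the dense one by 5.68 points.

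Among the 8 elements with most members, 6 turned sign between pairs. In members per 1000 regions, the sparse difference (sgSETD8 minus sgNT) less the dense one was 3.23 for Tigger3a, 2.22 for MER1B and 1.04 for MER5A. It was -0.887 for MER20, -0.547 for Tigger1 and -0.183 for MER3. MER3 had 2 members in each sparse table, so its value rests on the size of the tables.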

How the results depend on the processing

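With 1 pair left out at a time, the difference in the share of DNA transposon regions ran between -0.04 and 0.72 points, in members without a counterpart between 11.7 and 13.2 points, in the hAT-Charlie share between -9.63 and -1.46, in the Tigger3 share between 0.906 and 15.8, and in the log2 ratio of median width between -0.97 and -0.76. Members against other regions ran between 0.0058 and 0.25 in log2 width, between -15.0 and -4.73 points in intergenic share, and between -2.17 and 1.39 in median rank, which reversed without the dense pair.

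The class share difference of 0.340 became -0.21 in the better-ranked 50% of each table and -1.08 among repeat-centred regions. The excess without a counterpart, 12.4 points, became 11.1 with a cover of at least 50%, 14.0 with a gap of up to 1000 bp, 6.10 in the better-ranked 50% and 0.523 in regions of at least 500 bp, where the sparse pair gave -10.6 and the dense pair 11.6. With 1-peak regions only, the log2 width ratio of -0.87 became -0.21, the difference from other regions reversed to -0.11 in log2 width, and that in rank reversed to 4.58. In the better-ranked 50% the log2 width ratio was -0.62. The cause of these changes was not tested. The class share difference was also below 0, at -0.045 in regions of at least 500 bp and -0.093 over constituent peaks. The mean hAT-Charlie, Tigger3 and intergenic differences kept their direction under the alternatives run for them (9, 6 and 6), while in the dense pair alone the hAT-Charlie difference was 0.805 in the better-ranked 50% and the Tigger3 difference -0.979 in 1-peak regions. Using all sequences changed nothing, since 0 regions lay outside the chromosomes used. No paired analysis was possible because the groups share fewer than 2 replicate numbers in their labels or identifiers. Differences were taken within the 2 pairs of tables instead. The tables hold no counts, so what depth limits is unknown.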
